A study of Homo sapiens with 34 samples.

Results

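The 10 genes described here encode the subunits of the condensin complexes (*NCAPD2*, *NCAPG*, *NCAPH*, *NCAPD3*, *NCAPG2*, *NCAPH2*, *SMC2* and *SMC4*), DNA topoisomerase II alpha (*TOP2A*) and Ki-67 (*MKI67*). They were taken by gene symbol, and all 10 were listed in each of the 6 comparisons, among 17587 genes listed in any comparison and 13307 listed in all 6. RNA came from 3 human B-cell acute lymphoblastic leukaemia (B-ALL) lines, BV-173 with a BCR-ABL fusion, NALM-6 with ETV6-PDGFRB and RS4;11 with MLL-AF4. In each line, cells transduced with an shRNA against *CCND3* (shCCND3) or with a scrambled shRNA were sorted and collected on day 4, and cells given 1 µM palbociclib, an inhibitor of the cyclin D kinases CDK4 and CDK6, or its solvent DMSO were collected on day 3. The 12 groups held 34 samples, 3 per group except 2 for shCCND3 in NALM-6 and 2 for DMSO in BV-173. Each line is a single established culture, 1 shRNA stood for the knockdown, and the controls of the knockdown carry a lentiviral vector that the DMSO controls do not.

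Condensin is a ring-shaped motor that folds DNA into loops and so compacts the chromosomes for mitosis. Its ATPase core, the SMC2 and SMC4 pair, is shared by condensin I, which reaches the chromosomes once the nuclear envelope has broken down, and condensin II, which is nuclear throughout the cell cycle. Each complex adds its own kleisin, which closes the ring (NCAPH or NCAPH2), and its own pair of HEAT-repeat subunits (NCAPD2 and NCAPG, or NCAPD3 and NCAPG2). TOP2A cuts and rejoins both DNA strands so that sister chromatids can be untangled, and Ki-67 coats mitotic chromosomes and is the protein that pathologists stain to count cycling cells.

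The deposited tables give 1 level per group, on a scale of read counts scaled within the 2 groups of a comparison, with the replicates already combined. Neither the spread between replicates nor the depth per sample can be seen, so the differences below are ratios of 2 group levels with no replicate check and no test on samples. A gene was counted as lower or higher at a fold of at least 1.5. The summed level was 17810468 to 20756235 per group, and the median log2 ratio of all genes lay between −0.01 and 0.06 in the 6 comparisons. Of 10 B-lymphoblast markers, 9 had a level of at least 100 in all 12 groups and *DNTT* went down to 75.2, while 1 of 14 markers of other cell types (*COL1A1*) reached 100 in any group and 11 stayed under 10. *CCND3*, the target of the shRNA, was at 24.2%, 20.7% and 31.1% of its scrambled control for NALM-6, RS4;11 and BV-173 after knockdown, and at 78.0%, 81.8% and 76.0% of its DMSO control after palbociclib.

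All 10 genes were lower in the treated group of every comparison, and 58 of the 60 ratios passed a fold of 1.5. After *CCND3* knockdown, 10 of 10 passed in NALM-6, where 8.47% of all genes did, 10 of 10 in RS4;11 against 9.72% of all genes, and 8 of 10 in BV-173 against 4.78%. The exceptions in BV-173 were *NCAPD2*, just outside the threshold with a fold of 1.49, and *NCAPH2*, with a fold of 1.35, while *NCAPD3* was just inside it with a fold of 1.53. After palbociclib, 10 of 10 passed in each line, against 14.9% of all genes for NALM-6, 15% for RS4;11 and 11.9% for BV-173. None of the 10 was higher by that fold in any comparison, which 7.82%, 9.73% and 3.32% of all genes were after knockdown for NALM-6, RS4;11 and BV-173, and 21.4%, 16.7% and 13.6% were after palbociclib. In all 6 comparisons together, 8 of the 10 genes passed in the lower direction, as did 211 of the 13307 genes listed in all 6 (1.59%). RNA of bulk cultures was measured, so fewer cells that express these genes and less of their RNA per cell cannot be told apart.

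**Figure D1:**
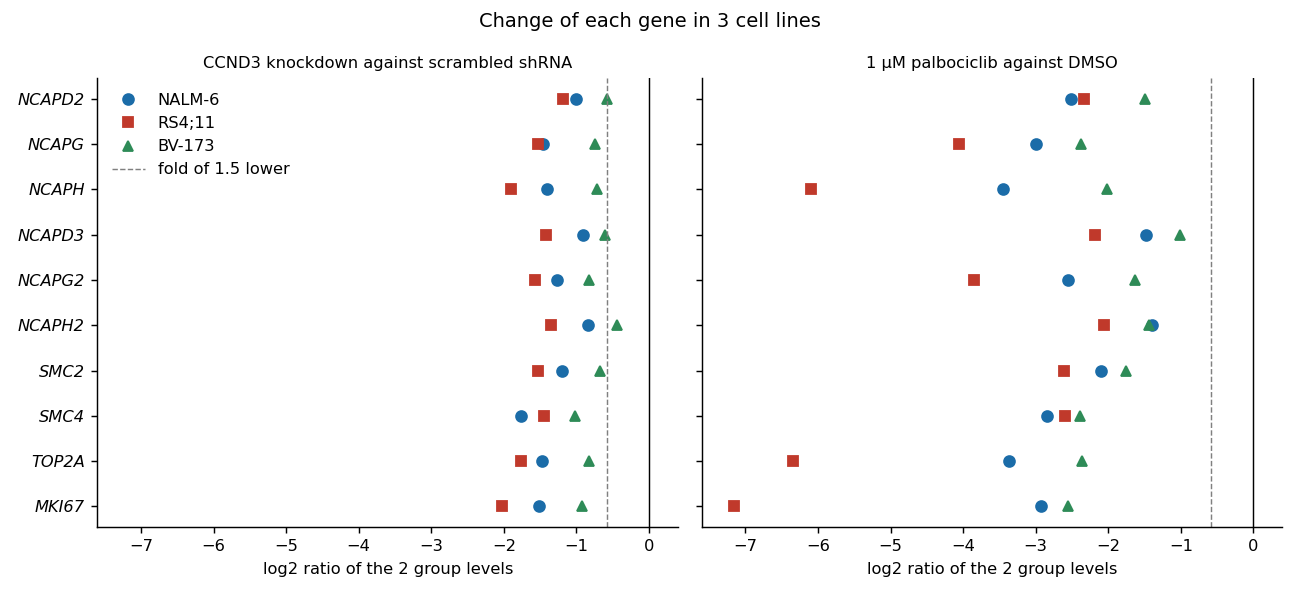
log2 ratio of the treated over the control level (horizontal axis) of each of the 10 genes, for *CCND3* knockdown on the left and palbociclib on the right, with 1 point per cell line and a dashed line at a fold of 1.5 lower. All 60 points lie below 0, the BV-173 points lie nearest to 0 in the left panel, and *NCAPH*, *TOP2A* and *MKI67* in RS4;11 stand at −6.10, −6.34 and −7.16 in the right panel.

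The promoter windows of the 10 genes were taken from RefSeq (GRCh38.p14), from 250 bases before to 50 bases after a gene's start. They were searched for short words tied to cell cycle genes, as a description of sequence. A window was found for 9 of the 10 genes, 12 windows in all, and for *NCAPH2* there was none. The word TTTGAA, the core of the cell cycle homology region (CHR), was present on either strand in 8 of the 12 windows and in 8 of 9 genes, all but *NCAPH*, against 15.2% of all 35116 windows and 18.2% of all genes. The other CHR word, TTCGAA, was in none of the 12 (1.45% of all windows), and CCAAT was in 5 of 12 (34.6% of all windows). Of the E2F words TTTCCCGC, TTTGGCGC, TTCCCGCC and TTTCGCGC, at least 1 was in 1 of 12 windows, a window of *NCAPD3* (5.03% of all windows). There TTTCCCGC and TTCCCGCC matched overlapping bases. The windows of the 2 genes with the largest average fall after palbociclib, *MKI67* (minus strand, chr10:128126374-128126673) and *TOP2A* (minus strand, chr17:40417847-40418146), and of the condensin I genes *NCAPG* (plus strand, chr4:17810729-17811028) and *NCAPH* (plus strand, chr2:96335516-96335815), the one without TTTGAA, are shown 5′ to 3′ along each gene, with TTTGAA and CCAAT on either strand in capitals.
MKI67: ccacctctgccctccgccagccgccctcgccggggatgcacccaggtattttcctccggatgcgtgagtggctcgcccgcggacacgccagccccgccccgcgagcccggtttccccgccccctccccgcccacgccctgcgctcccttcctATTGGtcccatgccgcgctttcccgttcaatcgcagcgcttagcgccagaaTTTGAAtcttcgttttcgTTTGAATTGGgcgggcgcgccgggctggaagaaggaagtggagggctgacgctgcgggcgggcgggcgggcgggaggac
TOP2A: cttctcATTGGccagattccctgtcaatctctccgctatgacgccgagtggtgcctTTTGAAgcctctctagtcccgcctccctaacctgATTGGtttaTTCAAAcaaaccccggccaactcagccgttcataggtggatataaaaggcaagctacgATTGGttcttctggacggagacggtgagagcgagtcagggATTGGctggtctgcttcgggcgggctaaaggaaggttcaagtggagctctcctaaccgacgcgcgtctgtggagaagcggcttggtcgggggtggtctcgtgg
NCAPG: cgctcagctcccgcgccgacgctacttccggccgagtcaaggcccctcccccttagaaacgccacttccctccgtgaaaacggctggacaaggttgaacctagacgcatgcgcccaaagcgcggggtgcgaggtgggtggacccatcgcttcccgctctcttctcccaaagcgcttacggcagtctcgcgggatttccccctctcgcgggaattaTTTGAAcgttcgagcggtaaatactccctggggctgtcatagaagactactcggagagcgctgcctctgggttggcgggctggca
NCAPH: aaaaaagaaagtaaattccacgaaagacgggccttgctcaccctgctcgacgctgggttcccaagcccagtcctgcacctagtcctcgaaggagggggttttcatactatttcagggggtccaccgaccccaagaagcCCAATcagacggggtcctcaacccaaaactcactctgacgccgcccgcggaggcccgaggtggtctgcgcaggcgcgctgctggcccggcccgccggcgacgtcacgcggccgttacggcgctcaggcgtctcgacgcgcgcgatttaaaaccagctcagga

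*MKI67* held TTTGAA at positions −47 and −29 from the start site, the latter sharing 1 base with a CCAAT on the opposite strand. *TOP2A* held TTTGAA at −194 and, on the opposite strand, at −151, with 4 CCAAT words. *NCAPG* held 1 TTTGAA, at −35, and no CCAAT, and *NCAPH* held 1 CCAAT, at −112. A match of letters describes the sequence only, and binding was not measured in these data.

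*SMC4* and *SMC2*, the ATPase core of both complexes, were lower in all 6 comparisons. For *SMC4* (NCBI gene 10051, chromosome 3, 160399650 to 160434953 on GRCh38.p14), the level went from 8299 to 2438 in NALM-6, from 6179 to 2276 in RS4;11 and from 6275 to 3085 in BV-173 after knockdown. After palbociclib it went from 8535 to 1186, from 7030 to 1165 and from 7289 to 1389 in the same order. *SMC4* had the largest fall of the 10 genes in NALM-6 and in BV-173 after knockdown, with log2 ratios of −1.77 (rank 14 of 15409 genes, counted from the largest fall) and −1.02 (rank 59 of 14763). Its log2 ratios after palbociclib, −2.85, −2.59 and −2.39, were the most alike across lines of all 10 genes, with an SD over the 3 lines of 0.23.

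*SMC2* (NCBI gene 10592, chromosome 9, 104088263 to 104141419) went from 3661 to 1590, from 3935 to 1363 and from 1714 to 1075 after knockdown for NALM-6, RS4;11 and BV-173. After palbociclib its level went from 3236 to 754, from 4679 to 769 and from 1804 to 535. The log2 ratios were −1.20, −1.53 and −0.67 after knockdown and −2.10, −2.61 and −1.75 after palbociclib. The core subunits form a pair in the protein complex, but their ratio of levels per kb of transcript, *SMC2* over *SMC4*, differed between groups. It was 0.394 with scrambled shRNA and 0.582 with shCCND3 in NALM-6, 0.570 and 0.536 in RS4;11, and 0.243 and 0.310 in BV-173. With DMSO and palbociclib the ratio was 0.339 and 0.569 in NALM-6, 0.596 and 0.591 in RS4;11, and 0.222 and 0.345 in BV-173. *SMC4* was thus lowered more than *SMC2* in NALM-6 and BV-173 under both treatments, and in RS4;11 the ratio changed by under 0.1 on the log2 scale.

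Among the condensin I subunits, *NCAPH* and *NCAPG* were lowered more than *NCAPD2* in all 6 comparisons. *NCAPH*, the kleisin of condensin I (NCBI gene 23397, chromosome 2, 96335766 to 96377091), went from 3083 to 1167, from 2300 to 618 and from 2851 to 1734 after knockdown for NALM-6, RS4;11 and BV-173. After palbociclib its level went from 3469 to 316, from 3209 to 46.9 and from 2543 to 630, which left 9.12%, 1.46% and 24.8% of the DMSO level. In RS4;11 the fold was 68.5 (rank 27 of 15857 genes), and in BV-173 it was 4.04, so the lines spread widely, with a log2 ratio of −3.86 ± 2.07 (SD over 3 lines) for palbociclib and −1.34 ± 0.59 for knockdown.

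*NCAPG*, a HEAT-repeat subunit of condensin I (NCBI gene 64151, chromosome 4, 17810979 to 17844865), went from 3392 to 1235, from 2204 to 761 and from 2684 to 1609 after knockdown. After palbociclib its level went from 3096 to 388 in NALM-6, from 2891 to 174 in RS4;11 and from 3723 to 714 in BV-173, with log2 ratios of −2.99, −4.05 and −2.38. *NCAPD2*, the other HEAT-repeat subunit (NCBI gene 9918, chromosome 12, 6494102 to 6531955), is the member of condensin I with the highest level. It went from 9166 to 4566, from 6705 to 2959 and from 7456 to 4995 after knockdown, and from 14042 to 2468, from 9043 to 1797 and from 8384 to 2973 after palbociclib. Its log2 ratios were −1.01, −1.18 and −0.58 after knockdown, the smallest of the 10 in RS4;11, and 17.6%, 19.9% and 35.5% of the DMSO level was left after palbociclib.

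The condensin II subunits followed the same order in part, with *NCAPG2* lowered more than *NCAPD3* and *NCAPH2* in all 6 comparisons. *NCAPG2* (NCBI gene 54892, chromosome 7, 158631169 to 158704804), a HEAT-repeat subunit, went from 4225 to 1747, from 3050 to 1027 and from 2847 to 1601 after knockdown, and from 3257 to 552, from 3150 to 219 and from 2643 to 857 after palbociclib. Its log2 ratios after palbociclib, −2.56, −3.85 and −1.63, lay nearer to those of its condensin I counterpart *NCAPG* than those of the other condensin II subunits did. *NCAPD3* (NCBI gene 23310, chromosome 11, 134150113 to 134225461), the other HEAT-repeat subunit, went from 2483 to 1322, from 2725 to 1022 and from 3076 to 2014 after knockdown. With palbociclib it went from 3202 to 1143, from 3157 to 693 and from 3522 to 1740, and its fold in BV-173, 2.02, was the smallest of the 30 palbociclib values.

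*NCAPH2*, the kleisin of condensin II (NCBI gene 29781, chromosome 22, 50508224 to 50524780), went from 1684 to 945, from 1571 to 614 and from 1487 to 1101 after knockdown for NALM-6, RS4;11 and BV-173. After palbociclib its level went from 1445 to 549, from 1400 to 337 and from 1242 to 457, which left 38.0%, 24.1% and 36.8% of the DMSO level. It had the smallest fall of the 10 genes in NALM-6 and BV-173 after knockdown and in NALM-6 and RS4;11 after palbociclib. Part of its exons, 857 bases or 19.2% of them in GENCODE 44, lies opposite exons of *SCO2*, a mitochondrial copper chaperone gene on the other strand, and whether the counting used strand is not given in the sources used here. *SCO2* was higher in all 6 comparisons, by 0.69 to 1.69 on the log2 scale, with levels of 123 to 248.8 in the controls and 245 to 505 in the treated groups. With palbociclib *SCO2* stood above *NCAPH2* in RS4;11, at 456 against 337, and in BV-173, at 505 against 457. A lncRNA on the same strand as *NCAPH2* (ENSG00000272821) shares 855 exon bases with it (19.2%), which counting by strand would not separate. Reads from these stretches cannot be told apart, and the part they have in the smaller fall of *NCAPH2* was not tested.

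**Figure D2:**
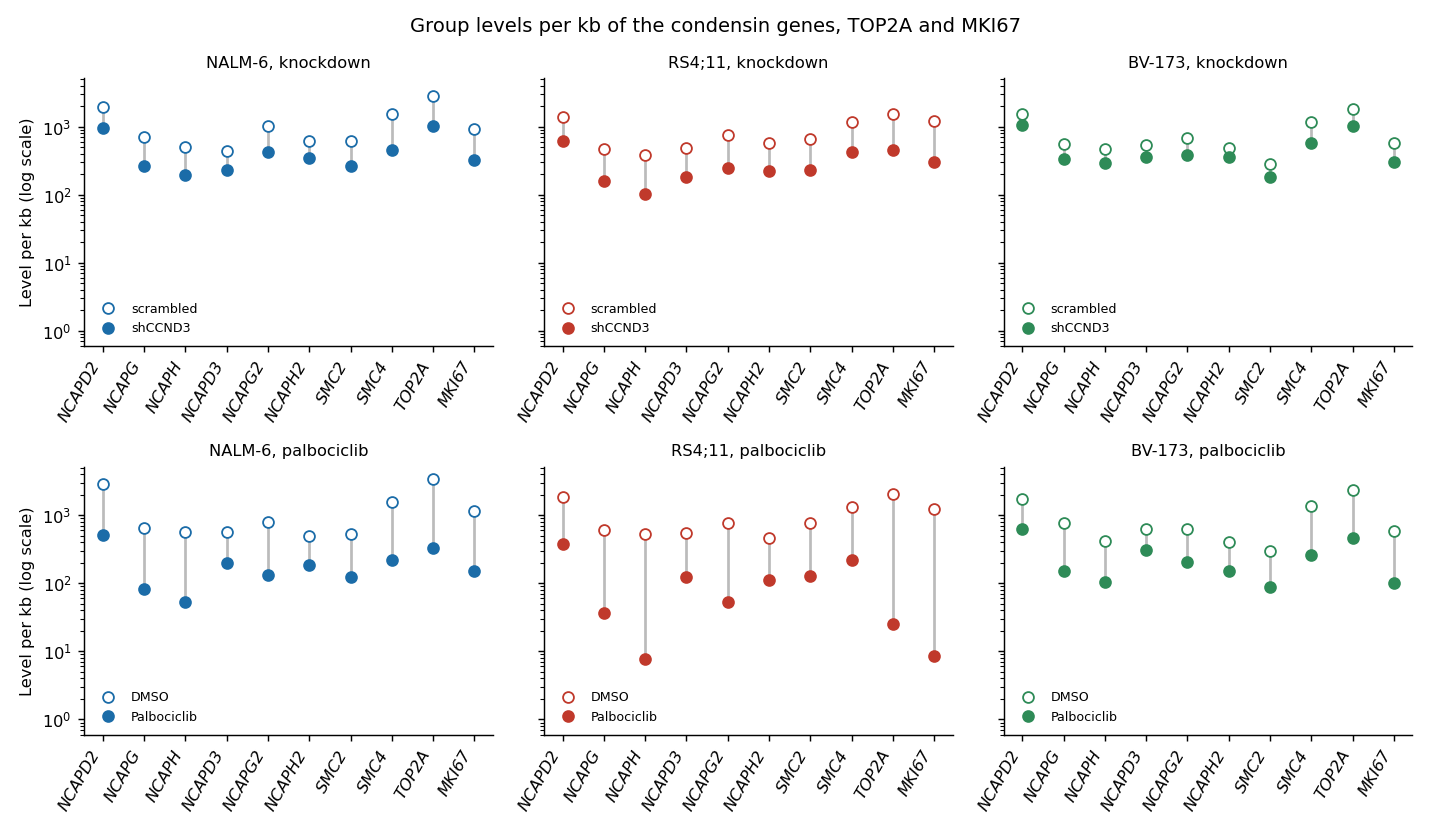
Level per kb of transcript (vertical axis, logarithmic) of the 10 genes in the control group (open circle) and the treated group (filled circle) of each comparison, with knockdown above and palbociclib below. The grey lines are longest for *NCAPH*, *TOP2A* and *MKI67* in RS4;11 with palbociclib, which end at 7.74, 25.1 and 8.52 per kb.

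*TOP2A* (NCBI gene 7153, chromosome 17, 40388525 to 40417896) had the highest level per kb of the 10 genes in each of the 6 control groups. Its level went from 16173 to 5832, from 8758 to 2584 and from 10551 to 5958 after knockdown for NALM-6, RS4;11 and BV-173. These were log2 ratios of −1.47, −1.76 and −0.82. After palbociclib it went from 19416 to 1885, from 11701 to 144 and from 13689 to 2658, with log2 ratios of −3.36, −6.34 and −2.36. In RS4;11 1.23% of the DMSO level was left, rank 16 of 15857 genes, against 9.71% in NALM-6 and 19.4% in BV-173.

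*MKI67* (NCBI gene 4288, chromosome 10, 128096659 to 128126423) showed the largest single fall. After knockdown its level went from 10840 to 3785 in NALM-6, from 14039 to 3460 in RS4;11 and from 6519 to 3433 in BV-173, with log2 ratios of −1.52, −2.02 and −0.93. Palbociclib took it from 13132 to 1720 in NALM-6, from 13895 to 97.3 in RS4;11 and from 6751 to 1151 in BV-173. The RS4;11 value, 0.700% of the DMSO level, was a fold of 143 and the second largest fall among 15857 genes, and the folds in NALM-6 and BV-173 were 7.64 and 5.86. The mean log2 ratio of *MKI67* after palbociclib, −4.21 ± 2.56 (SD over 3 lines), was −2.74 without RS4;11. Of all 60 values, 3 were under 2% of the control, those of *NCAPH*, *TOP2A* and *MKI67* in RS4;11 with palbociclib. At low levels the deposited values of the 2 groups are drawn together, with an SD of log2 ratios of 0.112 to 0.429 below a level of 1 against 0.461 to 1.18 at levels of 10 to 100, and how far this acts on levels such as 46.9 was not tested.

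The level per kb of transcript, which allows different genes of a group to be compared, ordered the 10 genes in the controls as *TOP2A*, *NCAPD2*, *SMC4*, *MKI67*, *NCAPG2*, *NCAPG*, *NCAPD3*, *SMC2*, *NCAPH2* and *NCAPH*. The range over the 6 control groups was 1522 to 3375 per kb for *TOP2A*, 1395 to 2922 for *NCAPD2* and 1152 to 1588 for *SMC4*. It was 568 to 1216 for *MKI67* and 637 to 1027 for *NCAPG2*, and the lower 5 genes all lay between 286 and 781. Within single control groups, *TOP2A* was above *NCAPD2* and *NCAPD2* above *SMC4* in 6 of 6, and *SMC4* was above *MKI67* in 5 of 6. *MKI67* and *NCAPG2* exchanged places in 3 of 6, and the order of the lower genes also varied between the groups. With palbociclib *NCAPD2* had the highest level per kb in all 3 lines, at 513, 374 and 619 for NALM-6, RS4;11 and BV-173. The scaling was done separately for each table, so levels of different lines stand side by side only, and *SMC2* in BV-173 was the lowest of the control values, at 286 and 300 per kb.

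The comparison of the 2 complexes asks whether the subunits particular to condensin I and those particular to condensin II moved by the same amount. After palbociclib, the mean log2 ratio was −2.99, −4.16 and −1.96 for condensin I and −1.81, −2.70 and −1.36 for condensin II, with the lines in the order NALM-6, RS4;11 and BV-173. The difference, condensin I less condensin II, was −1.17, −1.46 and −0.60, with a mean of −1.08 ± 0.44 (SD over 3 lines), in the same direction in 3 of 3 lines. After knockdown the differences were −0.28, −0.09 and −0.05, with a mean of −0.14 ± 0.12, and −0.07 without NALM-6. An exact two-sided sign-flip permutation test over the 3 lines gave p = 0.25 for each treatment, the smallest that 3 lines allow, so neither difference could pass a threshold of 0.05. Without the kleisins *NCAPH* and *NCAPH2*, an alternative chosen after the values were seen, the mean difference was −0.51 for palbociclib and 0.0195, of the opposite sign, for knockdown. By line, the palbociclib difference without the kleisins was −0.73 for NALM-6 and −0.17 for RS4;11, nearer to 0 than with them, and −0.62 for BV-173, where the kleisins made little difference. The knockdown difference without the kleisins was −0.14 for NALM-6, 0.14 for RS4;11 and 0.06 for BV-173, so the lines differed in sign.

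Within a group, the ratio of a condensin I subunit to its condensin II counterpart does not depend on how the table was scaled. It may still hold reads shared with overlapping genes, such as *SCO2* for *NCAPH2*, and their part was not tested. The length given for *NCAPH2* ran from 2755 to 3036 bases between comparisons, so its ratios per kb in different comparisons do not share 1 length. The kleisin ratio, *NCAPH* over *NCAPH2* per kb, was near 1 in the DMSO groups, at 1.16 for NALM-6, 1.13 for RS4;11 and 1.02 for BV-173, and with palbociclib it was 0.279, 0.0686 and 0.689. With scrambled shRNA it was 0.836, 0.666 and 0.963, and with shCCND3 0.564, 0.458 and 0.791, lower in 3 of 3 lines under both treatments. *NCAPG* over *NCAPG2* was 0.823, 0.793 and 1.23 with DMSO and 0.609, 0.689 and 0.725 with palbociclib, also lower in 3 of 3 lines. After knockdown that ratio was lower in 1 of 3 lines, with a mean log2 change of −0.02 ± 0.15 (SD over 3 lines). The D subunits were the most unequal pair, with *NCAPD2* over *NCAPD3* at 5.17, 3.37 and 2.80 with DMSO and 2.54, 3.06 and 2.01 with palbociclib, and the mean log2 change after knockdown was 0.06 ± 0.17. The summed level per kb of the 3 condensin I subunits made up 69.1%, 62.8% and 63.8% of the sum of all 6 with DMSO, and 55.3%, 59.2% and 56.7% with palbociclib. With scrambled shRNA and shCCND3 the share was 60.1% and 58.4% in NALM-6, 55.5% and 57.4% in RS4;11, and 60.1% in both groups of BV-173. *NCAPD2* made up most of the condensin I sum in every group, so the share mainly follows that gene. In RS4;11 with palbociclib it was at 374 per kb, against 36.6 for *NCAPG* and 7.74 for *NCAPH*.

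**Figure D3:**
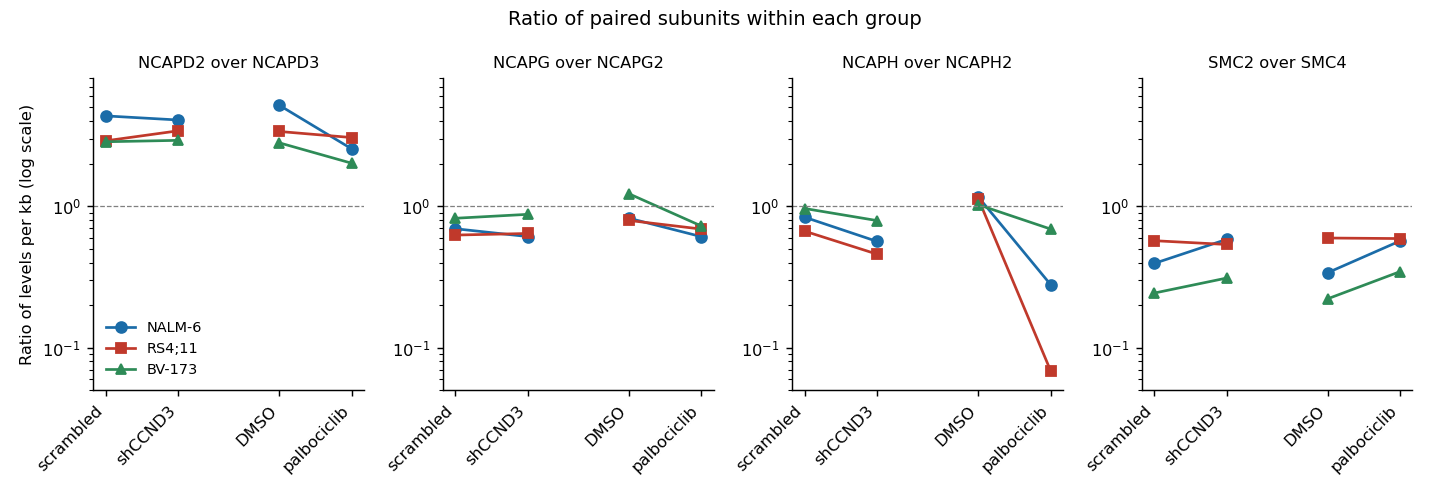
Ratio of levels per kb (vertical axis, logarithmic) of paired subunits within each group, joined from control to treated for each cell line. With palbociclib the *NCAPH* over *NCAPH2* line descends to 0.279 in NALM-6 and 0.0686 in RS4;11, further than the other pairs in those lines but not in BV-173, while the *NCAPG* over *NCAPG2* lines stay between 0.609 and 1.23.

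Each of the 10 genes had a lower log2 ratio with palbociclib than with the knockdown in all 3 lines, and 24.7% of the 13307 genes listed in all 6 comparisons also had the lower ratio with palbociclib in all 3 lines. The treatments had separate controls and were collected on different days, so agent, vector, sorting and day cannot be told apart in this comparison. The mean over the 10 genes was −1.28 for NALM-6, −1.57 for RS4;11 and −0.74 for BV-173 after knockdown and −2.56, −3.93 and −1.90 after palbociclib. The palbociclib value less the knockdown value was −1.28, −2.36 and −1.17, a mean of −1.60 ± 0.66 (SD over 3 lines), for which the exact two-sided sign-flip permutation test again gave its smallest value, p = 0.25. Per gene, the mean difference ran from −0.59 for *NCAPD3* and −0.76 for *NCAPH2* to −2.52 for *NCAPH*, −2.67 for *TOP2A* and −2.73 for *MKI67*. *SMC2* and *SMC4* differed by nearly the same amount in each line, −1.02 ± 0.10 and −1.20 ± 0.15, whereas *MKI67* differed by −1.41 for NALM-6, −5.14 for RS4;11 and −1.63 for BV-173. Across the 10 genes, which share the libraries of each group, the order of the falls was alike between treatments within a line, with a Spearman's rho of 0.758 for NALM-6, 0.939 for RS4;11 and 0.818 for BV-173.

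In a list of regulators and partners of condensin, TOP2A and Ki-67, not all of them mitotic, 15 of 21 genes were lower by a fold of 1.5 in at least 5 of 6 comparisons. In all 6 comparisons 8 were lower. Of the 13307 genes listed in all 6 comparisons, 3.98% were lower in at least 5. The list includes *CDK1*, the mitotic kinase that phosphorylates condensin, with log2 ratios of −1.37, −1.65 and −0.65 after knockdown and −3.20, −4.46 and −2.01 after palbociclib for NALM-6, RS4;11 and BV-173. *KIF4A*, a chromosome-bound kinesin that works with condensin I, was at −1.42, −1.67 and −0.79 and at −3.18, −6.54 and −2.13. *MCPH1*, a brake on condensin II, was at −0.33, −0.06 and 0.17 after knockdown and −0.49, −0.31 and −0.60 after palbociclib, and *NIFK*, a nucleolar partner of Ki-67, was between 0.04 and 0.46 in all 6. The others that were lower in at least 5 comparisons were *CCNB1*, *CCNB2*, *AURKA*, *AURKB*, *PLK1*, *BUB1*, *BUB1B*, *KIF20A*, *CDCA2*, *CDCA8*, *BIRC5*, *INCENP* and *ATAD5*.

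Cohesin is the related SMC complex that holds sister chromatids together. In the list of cohesin and its regulators, 9 of 16 genes were lower in at least 5 comparisons and 4 in all 6. *NIPBL*, *MAU2*, *WAPL* and *ESCO1* were past the fold in none, with log2 ratios of −0.58 to 0.37. *WAPL* was only just short of the threshold in NALM-6 after knockdown, at −0.584. The genes of the list not named here were lower by the fold in 3 or 4 of the 6 comparisons. The list median was −0.70, −0.71 and −0.48 after knockdown and −1.32, −1.29 and −1.12 after palbociclib. The ring subunit *SMC1A* was at −0.92, −1.40 and −0.71 and at −1.52, −2.14 and −1.25, and *SMC3*, *RAD21* and *STAG1* were also counted. The other genes counted are cohesin regulators active in S phase or mitosis, *ESCO2*, *ESPL1*, *CDCA5*, *PTTG1* and *SGO1*, of which *ESPL1*, the gene of separase, was at −1.48, −1.89 and −0.88 and at −3.34, −5.84 and −2.00. In the third SMC complex, SMC5/6, 0 of 7 genes were lower in 5 comparisons, which for so short a list is near the 3.98% of all genes. Its list medians were −0.01 to 0.03 after knockdown and −0.69 to −0.38 after palbociclib. With palbociclib 4, 2 and 1 of the 7 genes passed for NALM-6, RS4;11 and BV-173, against 14.9%, 15% and 11.9% of all genes. The 4 in NALM-6 include *EID3*, whose own value is the median of −0.69 there. *EID3* was barely detected, at 2.06 with DMSO and 1.28 with palbociclib in NALM-6 and at most 2.84 in any group. *NSMCE4A* passed in 4 of 6 comparisons. Of 6 other topoisomerase genes and partners 1 was lower in at least 5, *TOPBP1*, which acts in replication control and is not a topoisomerase. *TOP2B*, the paralog of *TOP2A* that is also made in resting cells, was at 0.38, −0.10 and −0.30 after knockdown and −0.25, −0.09 and −0.80 after palbociclib. Among 10 reference genes 0 were lower in 5 comparisons, and their medians lay between −0.42 and 0.18, but 3 of 10 (*TBP*, *HPRT1* and *SDHA*) were past the fold lower with palbociclib in NALM-6 and in RS4;11, *HPRT1* at −1.29 and −1.25.

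**Figure D4:**
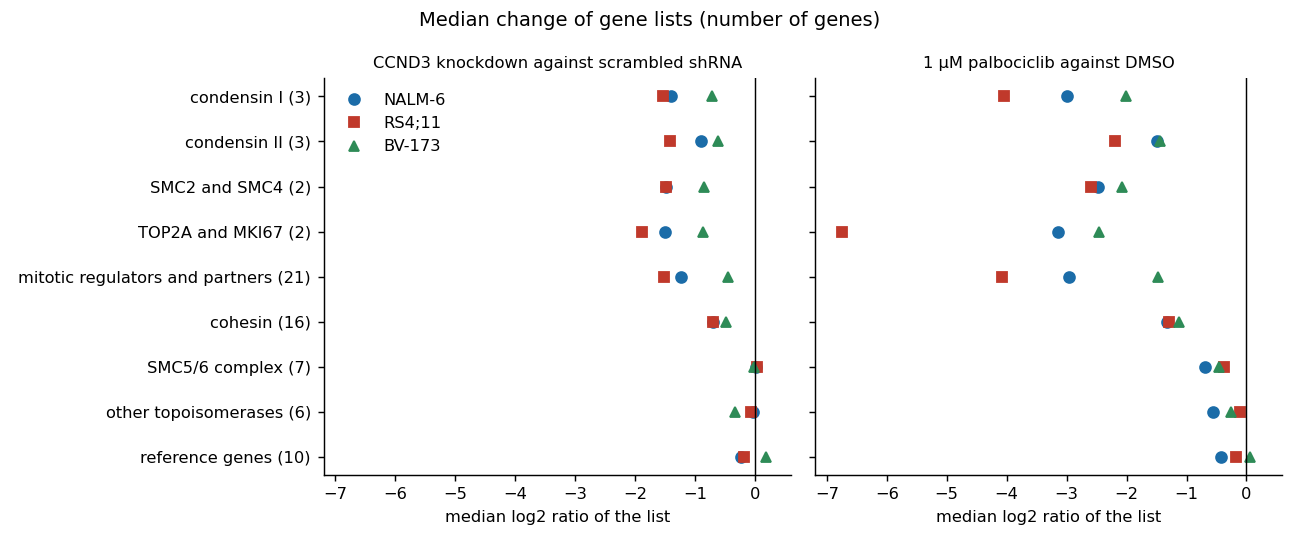
Median log2 ratio (horizontal axis) of the condensin genes, *TOP2A* with *MKI67*, and the lists named in the text, for knockdown on the left and palbociclib on the right, with 1 point per cell line and the number of genes in brackets. The SMC5/6, topoisomerase and reference lists lie between −0.34 and 0.18 after knockdown, and the *TOP2A* and *MKI67* point of RS4;11 lies at −6.75 after palbociclib.

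The genes with the pattern most like each complex were sought among 8271 genes with a level of at least 100 in all 12 groups, by the Euclidean distance between the 6 log2 ratios. That minimum leaves out genes with the deepest falls, such as *KIF4A*, at a level of 15.3 in RS4;11 with palbociclib, and the member *NCAPH*, at 46.9, would not meet it. Nearest to the mean of the condensin I subunits were *CDK1*, *FANCI*, *KIF11*, *SPAG5* and *CHEK1*, at distances of 0.40 to 0.487. Nearest to the mean of the condensin II subunits were *CDK2*, *KIF20B*, *H2AFZ*, *DSN1* and *MCM3*, at 0.315 to 0.407. *CDK1* stood at −4.46 in RS4;11 with palbociclib, where the condensin I mean was −4.16, and *CDK2* at −2.68, where the condensin II mean was −2.70.

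Other members also lie opposite exons of genes on the other strand, and the values of those genes are given because strand use is not known. *NCAPG* shares 33.7% of its exon bases with *LCORL*, which had levels of 254 to 1043 and log2 ratios of −0.18 to −1.30. *SMC4* shares 19.0% with *TRIM59*, at levels of 5.59 to 257, and 2.98% with *IFT80*, at 241 to 728. *NCAPD3* shares 10.1% with *JAM3*, at 8.90 to 44.4. *NCAPD2* shares 5.92% with *MRPL51*, at levels of 822 to 1541 and log2 ratios between −0.63 and 0.17. *NCAPD3* also shares 1.33% with *VPS26B*, at levels of 118 to 1408. In the treated groups a neighbour was at times above the member. With palbociclib *LCORL* was at 423 against 388 for *NCAPG* in NALM-6 and at 334 against 174 in RS4;11, and *VPS26B* was at 1130 against 693 for *NCAPD3* in RS4;11. *NCAPG*, *SMC4*, *NCAPD3* and *NCAPD2* were above the named neighbours in the control group of every comparison, and the part of shared reads in their values was not tested.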

How the data were processed

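RNA-seq of 34 samples in 12 groups was used, with groups taken from the cell line and treatment in the labels. Per the labels and the study's methods, the authors' provider used SOAPnuke to filter reads, Bowtie2 to align them to an hg38 reference and RSEM to estimate levels, and compared the groups with DESeq2. Versions and the strand setting are not given in the sources used here. The deposited tables hold 1 signal per group and gene, a level scaled within the pair of groups with replicates combined, beside gene length. They also hold the authors' own fold changes, p-values and adjusted p, which were not used.

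From the levels, log2 ratios of treated over control were computed with no pseudocount and counted at a fold of 1.5. Tests per gene on samples need values per sample, so the only test was an exact two-sided sign-flip permutation over the 3 lines. SDs are over lines. Levels per kb used the tables' gene lengths, which differ slightly between tables. The members and gene lists were chosen with earlier results of these data known. The genes named are the 10 members, *CCND3*, genes of the lists lower in at least 5 of 6 comparisons with up to 6 others per list, the 5 genes most like each complex, and genes overlapping a member, the last chosen after values were seen. Promoters and positions are from RefSeq GRCh38.p14, overlaps from GENCODE 44. Computation used pandas 2.3.3 and numpy 2.4.6 in Python 3.11.15, with scipy 1.17.1 for rank correlations and matplotlib 3.10.9 for plots. Only the log2 ratio, the fold rule and the sign-flip test were tried on simulated data.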

Additional observations from a re-analysis of the deposited data

How the results depend on the processing

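The log2 ratio of each of the 10 genes over the 3 lines moved by less than the SD over lines with a pseudocount of 10 and with the median of all genes subtracted. Leaving out a cell line cannot turn a mean of values that are all below 0. A fold of 2 in place of 1.5 left 1 of the 10 genes (*SMC4*) in BV-173 after knockdown, against 0.488% of all genes. The counts of the other 5 comparisons stayed within 1.5 times, where 3.08% to 7.07% of all genes passed a fold of 2. Leaving the kleisins out, an alternative added after seeing the data, took the condensin I less condensin II difference to 0.0195 for knockdown and −0.51 for palbociclib, and by construction leaves 4 of the 6 subunits. With all 6 subunits and a cell line left out, condensin I less condensin II lay between −0.19 and −0.07 after knockdown and between −1.32 and −0.89 after palbociclib. The share of all genes counted as lower moved by over 1.5 times with a fold of 2 and with a lower one. Ranked without division by length, only *TOP2A*, *NCAPG2* and *NCAPD3* kept their places among the controls. *MKI67* moved from 4 to 2, *NCAPG* from 6 to 8 and *SMC2* from 8 to 6. *NCAPD2* moved from 2 to 3, *SMC4* from 3 to 4, *NCAPH* from 10 to 9 and *NCAPH2* from 9 to 10. No paired analysis was possible because the tables hold 1 value per group, and for the same reason leaving out replicates was not run. The unknown replicate spread limits all of these values.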
